A study of Mus musculus with 15 samples.

Results

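The families described here are 8 groups of receptors through which myeloid cells sense microbes, dying cells, antibodies and sialylated or MHC ligands: the Toll-like receptors, C-type lectins, Fc gamma receptors, Lilr and Pir receptors, Siglecs, Cd300 receptors, Trem receptors and formyl peptide receptors. Members were chosen by the start of the gene symbol alone, and 46 genes were found among the 4567 that the deposited tables list. The C-type lectins contributed 10 of them, the Toll-like receptors and the Lilr and Pir receptors 9 each, the Cd300 receptors 5, the Siglecs and the Trem receptors 4 each, the Fc gamma receptors 3 and the formyl peptide receptors 2. The tables hold only genes selected by the authors for change between groups, so a family member that is not listed has no value here.

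Several of these families hold both activating and inhibitory receptors. Most activating members carry no signaling motif of their own and pair with the adaptors Fcer1g or Tyrobp. The immunoreceptor tyrosine-based activation motifs (ITAMs) of these adaptors recruit kinases of the Src and Syk families. Inhibitory members carry immunoreceptor tyrosine-based inhibition motifs (ITIMs) in their own tails and recruit phosphatases. Toll-like receptors signal through separate adaptors, from the cell surface for lipids and proteins of microbes and from endosomes for nucleic acids, and formyl peptide receptors are chemoattractant receptors for peptides released by bacteria and mitochondria. These genes are best known from neutrophils, monocytes, macrophages and dendritic cells, and several Toll-like receptors, Siglecg and Fcgr2b are also well known from B cells.

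RNA was sequenced from T cells sorted out of mouse spleen, in 5 groups of 3 libraries labelled as biological replicates. CD4 and CD8 control cells came from untransplanted C57Bl6 mice on day 0 and were Flica-negative. CD4 Flica-negative, CD8 Flica-negative and CD8 Flica-positive cells came from lethally irradiated Balb/C mice on day 7 after transfer of C57Bl6 T cells and bone marrow, a model of acute graft-versus-host disease (aGvHD), and Flica is a fluorescent probe for active caspase-1. CD4 Flica-positive cells are not analysed here, mice with aGvHD were pooled for each sort while a control sort may hold 1 mouse, and the controls differ from the day 7 groups in irradiation, transplant and host as well as in day, so these cannot be told apart. In bulk RNA, more cells of a type and more RNA per cell cannot be told apart either.

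The labelled lineage was checked with Cd8a, the only gene of a 13-gene T cell list that the tables hold. It averaged 19748 normalized counts in CD8 control, 13875 in CD8 Flica-negative and 10759 in CD8 Flica-positive cells, against 69.4 in CD4 control and 6.43 in CD4 Flica-negative cells. A normalized count is a read count divided by the size factor of its library. The raw counts on listed genes, which are not the depth, came to 2143579 to 3184674 in each of the 12 control and Flica-negative libraries and 7310375 to 11046043 in each of the 3 Flica-positive libraries. Markers of other cells moved with the groups. All 14 neutrophil markers, among them S100a8, Ly6g and Elane, were called higher in CD8 Flica-positive than in CD8 Flica-negative cells, and their summed normalized count was 60.9 to 118 in CD8 control, 11864 to 18188 in CD8 Flica-negative and 200517 to 387729 in CD8 Flica-positive libraries. All 9 B cell markers were called lower on day 7 in both lineages, from a sum of 5670 to 8510 in CD8 control to 144 to 211 in CD8 Flica-negative libraries, and from 5860 to 7851 to 42.3 to 77.7 in CD4 libraries. Globin and Klf1 transcripts summed to 110389 in CD8 Flica-positive replicate 1, against 6735 and 1393 in the other two.

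The other marker lists were counted in the same way between CD8 Flica-positive and Flica-negative cells. Higher calls were made for 9 of 11 tested macrophage or monocyte markers, 5 of 5 mast cell or basophil markers, 5 of 5 erythroid markers, 2 of 4 megakaryocyte or platelet markers, 2 of 7 dendritic cell markers and 2 of 4 B cell markers. Lower calls were made for 2 of 2 tested natural killer cell markers and 1 dendritic cell marker, Itgax. Of all genes tested, 27.4% were called higher and 3.51% lower. The marker genes tested are ones that the authors had selected for change, so these counts are not independent evidence. The erythroid sums of the groups overlapped, at 272 to 3555 in CD8 Flica-negative and 1393 to 110389 in CD8 Flica-positive libraries. Some defining markers were at 0 in every library of a group: Ly6g, Camp and Elane in CD8 control, Ly6g, Mmp8 and Elane in CD4 control, C1qa in CD8 control, Ms4a1 in both Flica-negative groups and Klra8 in CD8 Flica-positive cells. Some of the 11 listed macrophage or monocyte markers, such as Cd14 and Itgam, also stand in the pathway lists used further on.

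**Figure D1:**
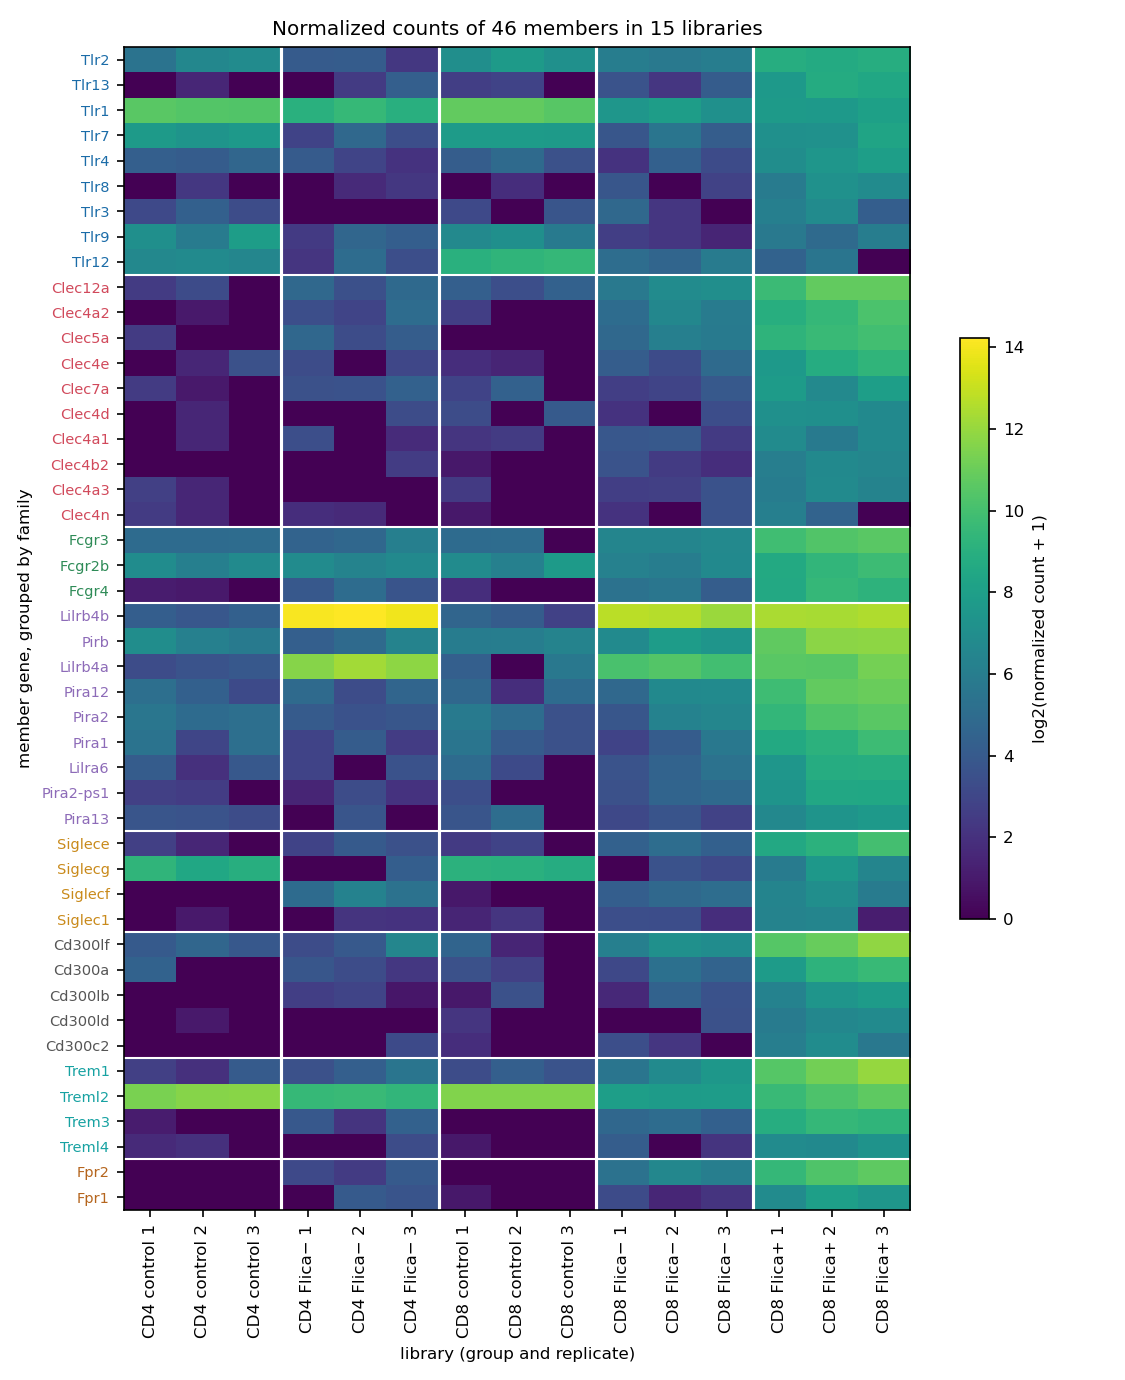
Heat map of log2(normalized count + 1) for the 46 members (rows, grouped by family and colored by family name) in the 15 libraries (columns, by group and replicate). Most rows are dark in the controls and light in the 3 CD8 Flica-positive columns, while Tlr1, Tlr12, Treml2 and Siglecg are light in the controls and Lilrb4a and Lilrb4b are light in all 9 day 7 columns.

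The listed members were almost entirely higher in CD8 Flica-positive than in CD8 Flica-negative cells of transplanted mice. The authors had already selected 37 of the 46 for change between these groups in the same libraries. Among all 4567 listed genes, 972 were selected in this way. The number of members called is thus largely fixed by that selection and is not independent evidence. Of 45 members tested with the quasi-likelihood test of edgeR, 39 were called higher and 0 lower at an adjusted p below 0.05, against 27.4% and 3.51% of all 3337 listed genes tested. No member was lower at an unadjusted p below 0.05 or by DESeq2. The median log2 fold change was 4.004 over the members and 0.51 over all genes tested. All 3 Flica-positive libraries lay above all 3 Flica-negative libraries for 40 of the 46 members, as for 38.6% of all genes tested. When the libraries were rescaled by TMM over the listed genes, which lowered the median log2 fold change of all genes by 0.56, 38 members were called higher and 0 lower, while the calls over all genes went from 916 higher and 117 lower to 713 higher and 427 lower.

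Levels in control cells were low for most members. The mean was under 10 normalized counts for 26 of the 46 members in CD8 control cells and for 26 in CD4 control cells, for 23 in CD4 Flica-negative and 14 in CD8 Flica-negative cells, and for 0 in CD8 Flica-positive cells. The median member stood at 7.44 normalized counts in CD8 control, 24.7 in CD8 Flica-negative and 314 in CD8 Flica-positive cells. Within the Flica-positive group, replicate 1 was the lowest library for 31 of the 39 members called higher, and these members summed to 15674, 26080 and 33330 normalized counts in replicates 1, 2 and 3. Leaving out any 1 of the 6 libraries gave between 34 and 40 members called higher, the lowest without Flica-positive replicate 2.

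The formyl peptide receptors include the member with the largest log2 fold change, Fpr1, and one with 0 counts in every control library, Fpr2. At chr17:17887824-17893952 (GRCm38), Fpr2 stood at 40.5, 97.0 and 67.3 normalized counts in the CD8 Flica-negative libraries and 712, 1297 and 1698 in the CD8 Flica-positive libraries. Its groups did not overlap, and its log2 fold change was 4.17 ± 0.43 (SE, n = 3 per group, edgeR adjusted p = 6.1e-05), an 18.1-fold difference of means. Against the controls, with a floor of 3 counts per library, Fpr2 was at least 24.9-fold higher in CD8 Flica-negative and at least 451-fold higher in CD8 Flica-positive cells. Fpr1, the high-affinity receptor of the family, rose from 8.52, 1.87 and 3.45 to 114, 257 and 176 normalized counts, with a log2 fold change of 5.29 ± 0.70 (SE, edgeR adjusted p = 0.00031), the highest value of any member.

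Among the Trem receptors, Trem1 and Trem3, which pair with Tyrobp and amplify inflammatory responses of neutrophils and monocytes, were scarce in controls. Trem1, at chr17:48232768-48246924, had 8.81, 18.8 and 11.54 normalized counts in CD8 control, 45.8, 111 and 184 in CD8 Flica-negative and 1428, 2328 and 4049 in CD8 Flica-positive libraries. The 3 groups formed 3 separate steps, with a log2 fold change of 4.51 ± 0.54 (SE, edgeR adjusted p = 0.00016) for the upper step and 3.11 ± 0.64 (SE, edgeR adjusted p = 0.0018) for the lower. Trem3 had 0 counts in all CD8 control libraries and averaged 25.7 ± 5.9 normalized counts (SD, n = 3) in CD8 Flica-negative and 607 ± 131 (SD, n = 3) in CD8 Flica-positive cells. Treml4, which also pairs with Tyrobp, averaged 6.83 and 126 normalized counts in these groups. Its call (log2 4.21 ± 1.04 SE, edgeR adjusted p = 0.012) did not hold without Flica-negative replicate 3 (adjusted p = 0.052).

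The 3 Fc gamma receptors divide by sign. Fcgr3 and Fcgr4 are activating receptors for IgG that pair with Fcer1g, and Fcgr2b is the inhibitory one. Fcgr3, at chr1:171051174-171064935, rose from 89.5, 89.6 and 104 normalized counts in CD8 Flica-negative to 936, 1300 and 1521 in Flica-positive libraries, a log2 difference of 3.73 ± 0.27 (SE, edgeR adjusted p = 1.3e-05). Fcgr4, at chr1:171018920-171029761, rose from 40.5, 46.7 and 17.3 to 379, 711 and 585, a log2 difference of 4.004 ± 0.451 (SE, edgeR adjusted p = 0.00011). Neither pair of groups overlapped. Fcgr2b, at chr1:170958617-170976547, differed from these in the controls, where it was already present at 116, 72.5 and 213 normalized counts. It stood at 76.7, 65.3 and 106 in CD8 Flica-negative cells, not called against control (log2 -0.69 ± 0.47 SE, edgeR adjusted p = 0.20), and at 406, 653 and 875 in Flica-positive cells (log2 2.96 ± 0.37 SE, edgeR adjusted p = 0.00019).

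The C-type lectins were called higher for 9 of 10 members. Clec5a, an activating receptor that signals through Tyrobp, had 0 counts in all CD8 control libraries, 26.6, 70.0 and 57.8 normalized counts in Flica-negative and 601, 817 and 979 in Flica-positive libraries (log2 3.95 ± 0.40 SE, edgeR adjusted p = 6e-05). Clec4e (Mincle), which binds glycolipids of mycobacteria and fungi and a protein of dead cells, averaged 1.48, 18.3 and 426 normalized counts in CD8 control, Flica-negative and Flica-positive cells, a log2 difference of 4.53 ± 0.60 (SE, edgeR adjusted p = 0.00029) between the last 2. The CD8 control and Flica-positive libraries of both genes were far apart, and the inhibitory lectins rose as well. Clec12a, an ITIM receptor that senses uric acid crystals, had 52.2, 114 and 128 normalized counts in Flica-negative and 829, 1801 and 1802 in Flica-positive libraries (log2 3.91 ± 0.42 SE, edgeR adjusted p = 8.4e-05). Clec4a2, an ITIM lectin of dendritic cells, averaged 61.9 and 801 (log2 3.69 ± 0.47 SE, edgeR adjusted p = 0.00024). Both had clearly separated groups. The exception was Clec4n (dectin-2), with 70.3, 22.4 and 0 normalized counts in the 3 Flica-positive libraries, which overlapped the Flica-negative ones (edgeR adjusted p = 0.26). Clec7a (dectin-1), the receptor for fungal beta-glucan, which GENCODE M21 holds as a polymorphic pseudogene, averaged 8.84 and 194 (log2 4.42 ± 0.63 SE, edgeR adjusted p = 0.00046).

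Of the 9 Lilr and Pir receptors, 7 were called higher. Pirb, the inhibitory receptor for MHC class I at chr7:3711409-3720391, had 110, 233 and 169 normalized counts in Flica-negative and 1733, 3416 and 3647 in Flica-positive CD8 libraries (log2 4.10 ± 0.38 SE, edgeR adjusted p = 3.5e-05). Its activating counterparts moved by about as much, with log2 differences of 4.58 ± 0.66 (SE) for Pira1, 4.25 ± 0.61 for Pira2, 4.28 ± 0.53 for Pira12 and 4.14 ± 0.60 for Pira13, and edgeR adjusted p values between 0.00018 and 0.0005. Pirb was also present in controls. It stood at 61.7, 63.6 and 82.7 normalized counts in CD8 control, below all 3 Flica-negative libraries (log2 1.30 ± 0.40 SE, edgeR adjusted p = 0.015). That call did not hold without Flica-negative replicate 2 (adjusted p = 0.079), under TMM (adjusted p = 0.083) or with a replicate block (adjusted p = 0.055). Pirb, Lilra6 and the Pira genes are closely related, and GENCODE M21 holds Pira1 as a polymorphic and Pira2-ps1 as an unprocessed pseudogene, so how their reads were divided is uncertain. The same holds for the Clec4a genes and for Lilrb4a and Lilrb4b.

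The 5 Cd300 receptors were all called higher. Cd300lf, an ITIM receptor for lipids, led the family with 69.2, 143 and 122 normalized counts in Flica-negative and 1416, 1920 and 3753 in Flica-positive CD8 libraries (log2 4.40 ± 0.43 SE, edgeR adjusted p = 4.9e-05). Cd300a, the inhibitory receptor for phosphatidylserine, rose from 7.46, 37.3 and 22.4 to 223, 586 and 768 (log2 4.53 ± 0.64 SE, edgeR adjusted p = 0.00044). The activating Cd300lb averaged 11.6 and 159 (log2 3.75 ± 0.79 SE, edgeR adjusted p = 0.005). Cd300ld, also activating, was listed at 0 counts in Flica-negative replicates 1 and 2 and at 10.4 normalized counts in replicate 3, against 58.6, 94.2 and 110 in Flica-positive libraries. Its call (log2 4.57 ± 1.26 SE, edgeR adjusted p = 0.02) did not hold without any 1 of Flica-negative replicates 1 and 2 and Flica-positive replicate 2 (adjusted p between 0.057 and 0.063). Nor did that of Cd300c2, another activating member, without Flica-negative or Flica-positive replicate 2 (adjusted p = 0.07 and 0.076).

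**Figure D2:**
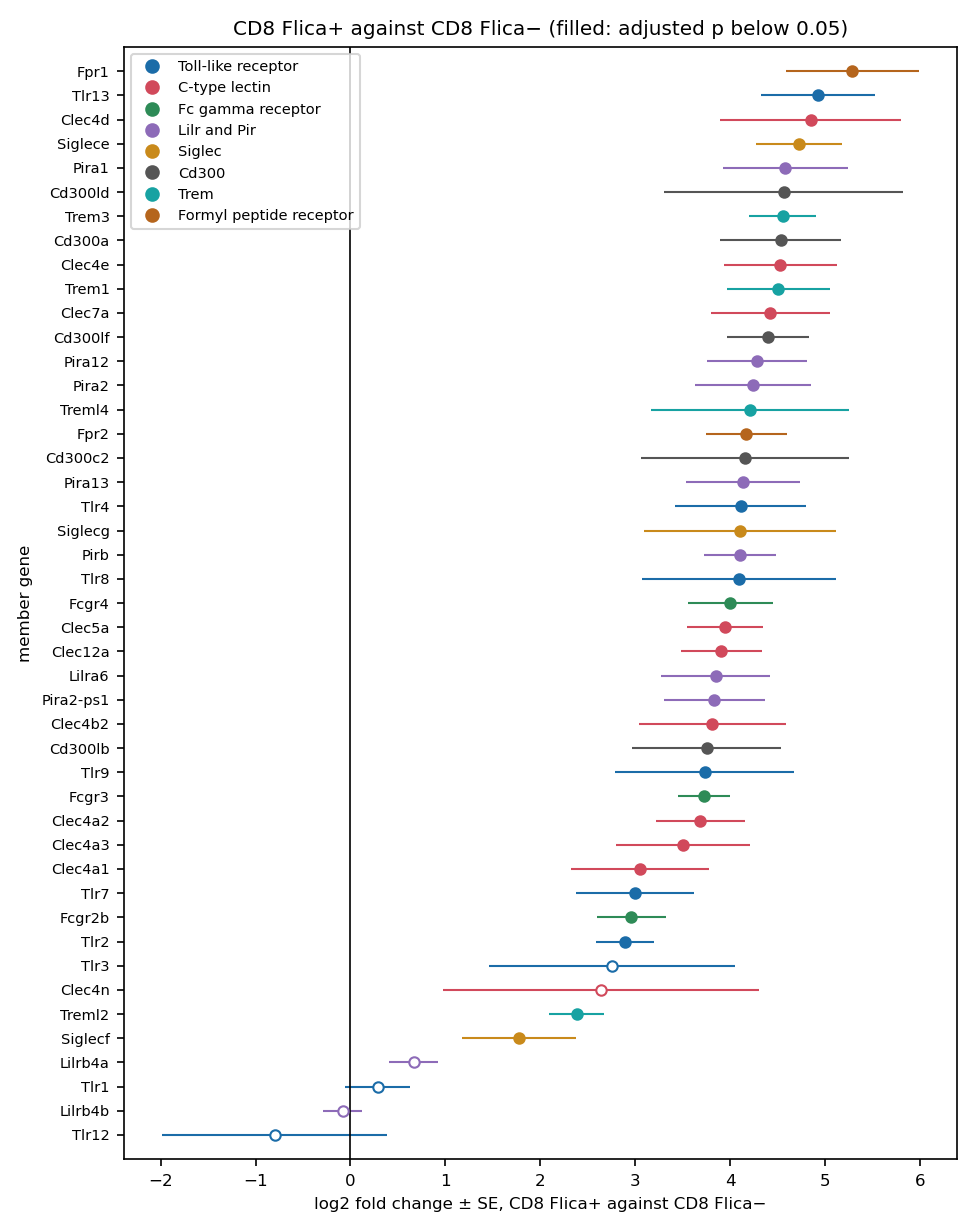
Log2 fold change with its standard error (x axis) of each of the 45 members tested between CD8 Flica-positive and CD8 Flica-negative cells (y axis, 3 libraries per group), colored by family, with filled points for an adjusted p below 0.05. The points run from -0.80 for Tlr12 to 5.29 for Fpr1, and the open points are Clec4n, Tlr3, Lilrb4a, Tlr1, Lilrb4b and Tlr12.

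Members of both signs were called higher. By the roles fixed for the members, 15 of 16 activating receptors and 9 of 11 inhibitory receptors were higher in Flica-positive cells, with median log2 fold changes of 4.26 and 3.91. Among Toll-like receptors the calls were 2 of 3 for those at the cell surface and 4 of 6 for the endosomal ones, with medians of 2.89 and 3.37. Of all genes tested, 27.4% were called higher. Since the authors had selected most members for this same change, the counts by role are largely fixed by that selection and are not independent evidence. Per kilobase of exon, which allows genes to be compared, the highest means in CD8 Flica-positive cells were those of Lilrb4b with 1020.5 normalized counts, Fpr2 with 953, Trem1 with 868, Pira12 with 741 and Fcgr3 with 721. The lowest were those of Tlr12 with 7.03, Siglec1 with 7.95 and Tlr3 with 13.0.

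The Siglecs held 3 different patterns. Siglece, an inhibitory receptor of neutrophils and monocytes, rose from 20.2, 33.6 and 19.8 normalized counts in CD8 Flica-negative to 390, 565 and 1001 in Flica-positive libraries (log2 4.72 ± 0.45 SE, edgeR adjusted p = 4.4e-05). Siglecf, the inhibitory receptor best known from eosinophils and alveolar macrophages, was listed at 0 counts in all CD4 control libraries and appeared on day 7 in both lineages. It had 29.98, 79.2 and 40.8 normalized counts in CD4 Flica-negative, 18.1, 27.1 and 33.7 in CD8 Flica-negative and 84.4, 128 and 58.6 in CD8 Flica-positive libraries. Against controls at the floor it was at least 16.8-fold higher in CD4 and at least 9.60-fold higher in CD8 Flica-negative cells, while its call between Flica-positive and Flica-negative cells (log2 1.78 ± 0.60 SE, edgeR adjusted p = 0.047) did not hold in 10 alternatives, with adjusted p between 0.055 and 0.18, among them the omission of any Flica-negative replicate or of Flica-positive replicate 1 or 2. Siglecg, an inhibitory receptor of B cells, was high in controls and is described below with the genes that fell. Siglec1 (sialoadhesin), a macrophage receptor without an ITIM, had 80.9, 88.3 and 1.20 normalized counts in the Flica-positive libraries and did not pass the filter on low counts. Without Flica-positive replicate 3 it passed and was called higher (log2 3.55, edgeR adjusted p = 0.0061).

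The Lilrb4 pair rose on day 7 in both lineages and was not called between CD8 Flica-positive and Flica-negative cells. Lilrb4a encodes gp49B, an ITIM-bearing inhibitory receptor of mast cells and myeloid cells, and Lilrb4b, its neighbor on chromosome 10 (chr10:51480632-51486703), encodes the closely related gp49A, which is counted here with the inhibitory members although it lacks ITIMs. Lilrb4b rose from 17.9, 13.5 and 19.6 normalized counts in CD4 control to 17470, 19314 and 15328 in CD4 Flica-negative libraries. In CD8 cells it rose from 23.8, 17.01 and 5.77 in control to 6841, 6321 and 4458 in Flica-negative libraries, and stood at 5449, 5216 and 5985 in Flica-positive libraries. The day 7 libraries were all far above the controls, and the Flica-positive and Flica-negative libraries overlapped.

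Lilrb4b changed by 9.99 ± 0.23 on the log2 scale (SE, edgeR adjusted p = 4.7e-09) in CD4 and by 8.54 ± 0.44 (SE, edgeR adjusted p = 5.1e-07) in CD8 Flica-negative cells against control, which are 1022-fold and 378-fold differences of means. Between CD8 Flica-positive and Flica-negative cells the difference was -0.08 ± 0.21 (SE, edgeR adjusted p = 0.80). Lilrb4a went the same way, with 8.93, 11.6 and 14.2 normalized counts in CD4 control, 3214, 4881 and 3597 in CD4 Flica-negative, 18.5, 0 and 51.0 in CD8 control, 1121, 1399 and 974 in CD8 Flica-negative and 1551, 1493 and 2496 in CD8 Flica-positive libraries. Its log2 changes against control were 8.36 ± 0.29 (SE, edgeR adjusted p = 4.4e-08) in CD4 and 5.66 ± 0.87 (SE, edgeR adjusted p = 0.00033) in CD8 cells, and its difference between CD8 Flica-positive and Flica-negative cells was 0.66 ± 0.25 (SE, edgeR adjusted p = 0.073, and 0.047 by DESeq2). All 3 Flica-positive libraries of Lilrb4a lay above all 3 Flica-negative ones, unlike those of Lilrb4b. Per kilobase of exon, Lilrb4b and Lilrb4a had the highest means of the members in CD4 Flica-negative cells, at 3194 and 746 normalized counts.

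**Figure D3:**
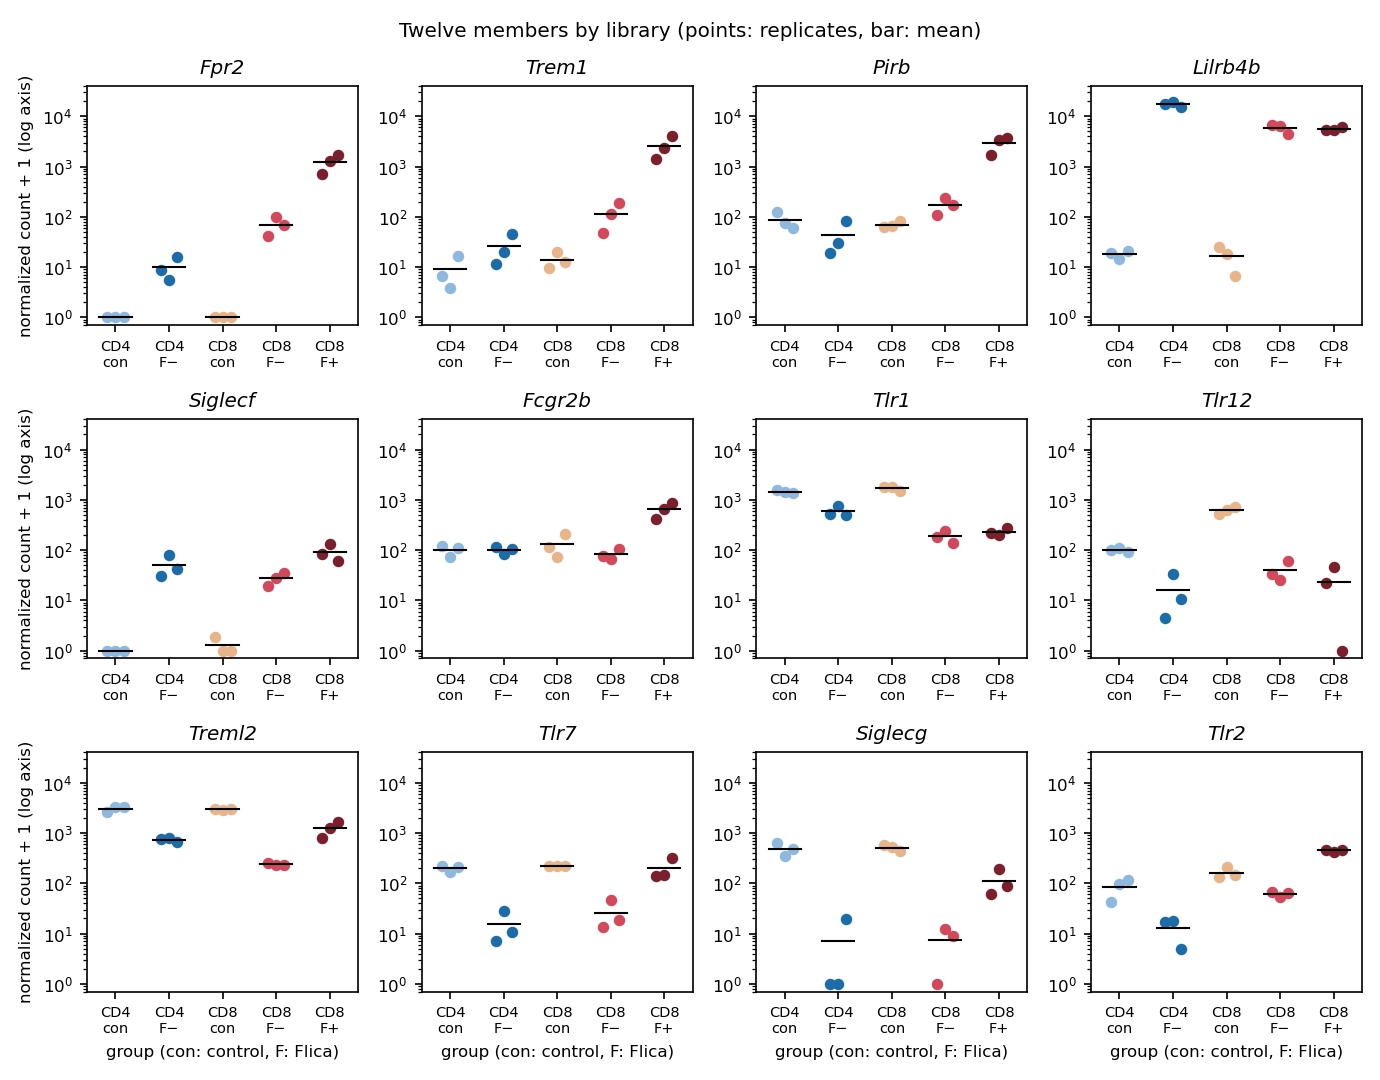
Normalized count + 1 on a log axis (y) of 12 members in the 5 groups (x; con, control; F, Flica), with a point for each of the 3 libraries and a bar at their mean. Fpr2, Trem1 and Pirb step up to CD8 Flica-positive cells, Lilrb4b is high in all day 7 groups, and Tlr1, Tlr12, Treml2, Tlr7, Siglecg and Tlr2 are lower in both Flica-negative groups than in their controls.

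A further 7 members were present in control T cell libraries and fell by day 7 in both lineages: Tlr1, Tlr2, Tlr7, Tlr9, Tlr12, Treml2 and Siglecg. These were all the members called lower in Flica-negative cells against control, 7 of 31 tested in CD8 cells (33.5% of all genes tested were called lower) and 7 of 24 tested in CD4 cells (30.9%). For each of them all 3 Flica-negative libraries lay below all 3 control libraries in both lineages. They were picked for being called lower, and the share of all genes without overlap was not computed here. Higher calls numbered 13 of 31 in CD8 cells, where 42.3% of all genes were called higher, and 5 of 24 in CD4 cells, where 37.8% were. Neither the higher nor the lower shares stood above those of all genes, and the CD4 count of higher calls was 9 without CD4 control replicate 1. The 13 in CD8 cells were Lilrb4a, Lilrb4b, Pirb, Siglece, Siglecf, Cd300lf, Clec12a, Clec4a2, Clec5a, Fcgr4, Fpr2, Trem1 and Trem3. Of these, 8 were among 11 inhibitory members tested and 4 among 10 activating members tested. Only those 10 of the 16 activating members passed the filter on low counts. The call of Siglece (edgeR adjusted p = 0.034) did not hold under TMM, with a replicate block, without CD8 control replicate 1 or without any 1 of the Flica-negative replicates (adjusted p between 0.066 and 0.1).

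Treml2, at chr17:48299498-48312533, a Trem family receptor also known from T and B cells, had the highest level per kilobase of exon of the members in controls (620 normalized counts in CD4 and 603 in CD8 cells). Its libraries stood at 2603, 3249 and 3286 normalized counts in CD4 and 2958, 2930 and 3001 in CD8 cells. It stood at 746, 797 and 661 in CD4 Flica-negative, 249.3, 228 and 235 in CD8 Flica-negative and 812, 1230 and 1669 in CD8 Flica-positive libraries. No day 7 library reached the level of the controls, and the 3 CD8 groups did not overlap. The log2 change from control was -2.05 ± 0.17 (SE, edgeR adjusted p = 3.5e-06) in CD4 and -3.64 ± 0.17 (SE, edgeR adjusted p = 3.3e-07) in CD8 Flica-negative cells. In Flica-positive cells it was 2.38 ± 0.29 above Flica-negative cells (SE, edgeR adjusted p = 0.00016) and still below control (log2 -1.26 ± 0.27 SE, edgeR adjusted p = 0.0029).

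Tlr1, at chr5:64924679-64933563, which pairs with Tlr2 to sense bacterial lipopeptides, had 1549, 1401 and 1334 normalized counts in CD4 control and 1812, 1832 and 1488 in CD8 control libraries. It fell to 527, 755 and 495 in CD4 Flica-negative and to 180, 244 and 139 in CD8 Flica-negative libraries, log2 changes of -1.27 ± 0.20 (SE, edgeR adjusted p = 0.00032) and -3.19 ± 0.26 (SE, edgeR adjusted p = 6.4e-06). The CD8 Flica-positive libraries, at 217, 198 and 272, overlapped the Flica-negative ones, with a difference of 0.29 ± 0.35 (SE, edgeR adjusted p = 0.57) that was -0.30 under TMM, also not called.

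Tlr12, at chr4:128615443-128618619, an endosomal receptor for a protein of Toxoplasma, had 99.4, 111 and 91.6 normalized counts in CD4 control and 530, 636 and 716 in CD8 control libraries, which did not overlap. On day 7 it had 3.53, 32.4 and 9.61 normalized counts in CD4 Flica-negative, 33.0, 24.3 and 59.5 in CD8 Flica-negative and 21.1, 45.9 and 0 in CD8 Flica-positive libraries. The control libraries lay above every day 7 library of their lineage. Its log2 changes from control were -2.75 ± 0.72 (SE, edgeR adjusted p = 0.0063) in CD4 Flica-negative, -4.0 ± 0.38 (SE, edgeR adjusted p = 1.7e-05) in CD8 Flica-negative and -4.80 ± 0.98 (SE, edgeR adjusted p = 0.0023) in CD8 Flica-positive cells.

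The other 4 that fell were higher in CD8 Flica-positive than in Flica-negative cells, a comparison that shares its Flica-negative libraries with the falls. Tlr7, the endosomal receptor for single-stranded RNA, had 223, 221 and 218 normalized counts in CD8 control, 12.8, 44.8 and 17.3 in Flica-negative and 139, 146 and 317 in Flica-positive libraries, with a log2 difference of 3.00 ± 0.62 (SE, edgeR adjusted p = 0.0046) between the last 2. Tlr9, the endosomal receptor for CpG DNA, averaged 98.3, 3.60 and 48.9 (log2 3.73 ± 0.94 SE, edgeR adjusted p = 0.013), a call that did not hold without Flica-negative replicate 2 or 3 (adjusted p = 0.057 and 0.053). For both genes every Flica-positive library lay above every Flica-negative one. Siglecg had 572, 516 and 447 normalized counts in CD8 control, 0, 11.2 and 7.77 in Flica-negative and 59.8, 191 and 87.3 in Flica-positive libraries (log2 4.11 ± 1.01 SE, edgeR adjusted p = 0.012), a call that did not hold without Flica-positive replicate 2 (adjusted p = 0.073). Tlr2, the surface receptor for bacterial lipoproteins, had 130, 213 and 143 normalized counts in CD8 control, 65.0, 52.3 and 63.9 in Flica-negative and 464, 424 and 460 in Flica-positive libraries (log2 2.89 ± 0.31 SE, edgeR adjusted p = 7.2e-05). Tlr2 was the only one of the 7 whose Flica-positive libraries all lay above the CD8 controls on the deposited scale. Under TMM its log2 change from control was -0.47 in place of 1.47.

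The B cell markers fell in the same libraries as these 7 members, by 36.9-fold on average in CD8 and 108-fold in CD4 Flica-negative cells, and their summed level was 2.90-fold higher in CD8 Flica-positive than in Flica-negative cells. Among the members, the falls were 80.9-fold for Siglecg, 27.4-fold for Tlr9, 16.1-fold for Tlr12, 12.5-fold for Treml2, 9.12-fold for Tlr1, 8.85-fold for Tlr7 and 2.68-fold for Tlr2 in CD8 cells. In CD4 cells they were 79.7-fold for Siglecg, 13.8-fold for Tlr7, 9.26-fold for Tlr9, 6.93-fold for Tlr2, 6.64-fold for Tlr12, 4.15-fold for Treml2 and 2.41-fold for Tlr1. The part of these markers in the falls was not tested.

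The remaining Toll-like receptors were scarce in control T cells. Tlr13, a sensor of bacterial ribosomal RNA, had 11.7, 3.73 and 16.4 normalized counts in CD8 Flica-negative and 196, 430 and 358 in Flica-positive libraries (log2 4.93 ± 0.60 SE, edgeR adjusted p = 0.00017). Tlr4, the lipopolysaccharide receptor, averaged 19.3 in CD8 control, 10.5 in CD8 Flica-negative and 185 in CD8 Flica-positive cells (log2 4.11 ± 0.69 SE, edgeR adjusted p = 0.0013). Tlr8, an endosomal RNA sensor, averaged 6.27 and 108 (log2 4.09 ± 1.02 SE, edgeR adjusted p = 0.013), a call that did not hold without Flica-negative replicate 3 or Flica-positive replicate 2 (adjusted p = 0.051 and 0.059). These 3 had no overlap between the groups. Tlr3, the receptor for double-stranded RNA, was not called, since its Flica-positive libraries had 70.3, 115 and 17.9 normalized counts and its Flica-negative ones 26.6, 3.73 and 0 (edgeR adjusted p = 0.14), which overlapped. Without Flica-negative replicate 1 it was called higher (edgeR adjusted p = 0.043).

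**Figure D4:**
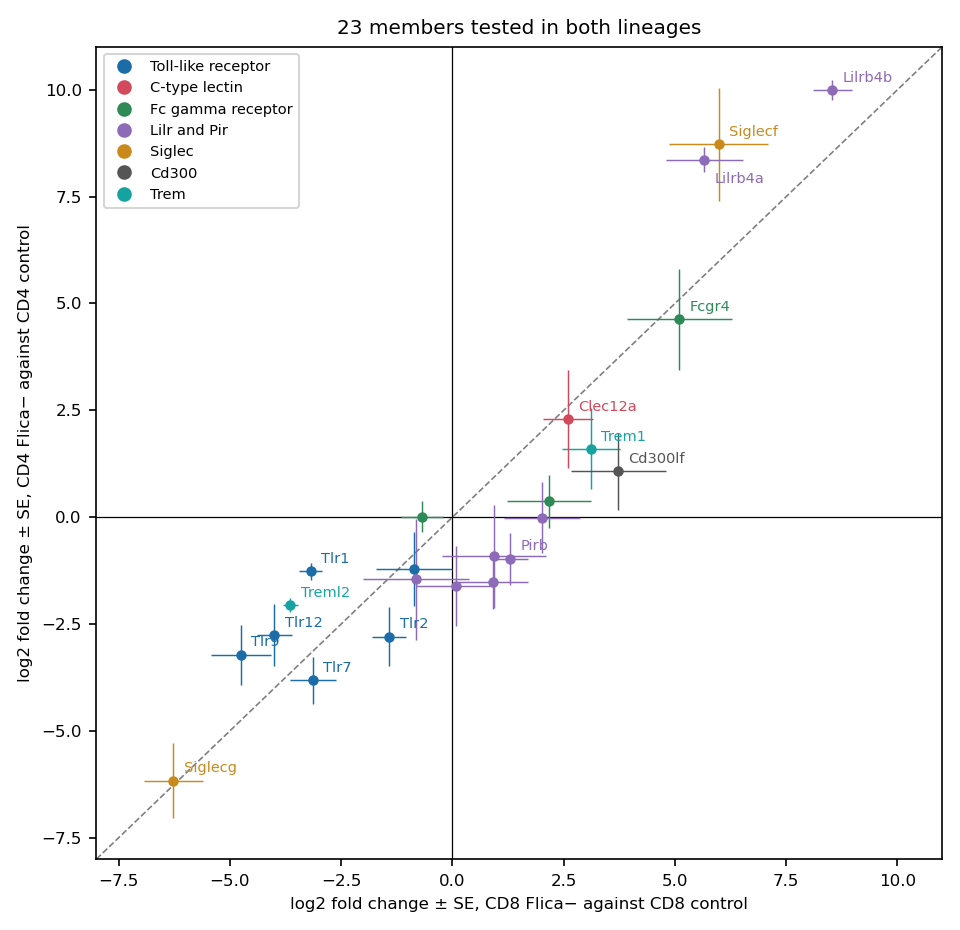
Log2 fold change with its standard error of the 23 members tested in both lineages, CD8 Flica-negative against CD8 control (x axis) and CD4 Flica-negative against CD4 control (y axis), colored by family and named where called in at least 1 lineage. The dashed line marks equal change. Lilrb4a, Lilrb4b, Siglecf and Fcgr4 are high in both lineages, and Tlr1 and Treml2 lie above the line on the falling side.

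Whether the change from control differed between lineages was tested with the interaction term of a fit of the 4 control and Flica-negative groups. Of 36 members tested, 3 were called, as were 11.3% of all genes tested. Tlr1 and Treml2 fell less in CD4 than in CD8 cells, by differences of 1.92 ± 0.32 (SE, edgeR adjusted p = 0.00085) and 1.59 ± 0.23 (SE, edgeR adjusted p = 0.00019) on the log2 scale. Lilrb4b rose more in CD4 cells, by 1.45 ± 0.43 (SE, edgeR adjusted p = 0.041), a call that did not hold under TMM or on leaving out any 1 of 8 libraries (adjusted p between 0.061 and 0.16). Lilrb4a had a difference of 2.701 ± 0.857 (SE, edgeR adjusted p = 0.052) in the same direction. Clec7a and Fcgr4 completed the 5 members called higher in CD4 Flica-negative cells. Fcgr4 had 14.1, 32.4 and 12.0 normalized counts there and was at most at the floor in control, and the call of Clec7a (edgeR adjusted p = 0.048) did not hold in 10 alternatives, the omission of 5 of the 6 CD4 libraries included (adjusted p up to 0.17).

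Against CD8 control, 37 of 44 members tested were called higher in CD8 Flica-positive cells and 4 lower, where 52.0% of all genes were called higher and 23.3% lower. The 4 lower members were Tlr1, Tlr12, Treml2 and Siglecg. This comparison shares its Flica-positive libraries with the one above, and it depended on scaling, since TMM lowered the median log2 change of all genes by 1.92 and turned the calls over all genes from 1923 higher and 861 lower to 1066 higher and 1340 lower. Under TMM 29 members were called higher and 6 lower. Tlr7 and Tlr9, which were not called against control (log2 -0.14 and -1.01), were then called lower (log2 -2.17 and -2.99), and the calls of Tlr2, which went from 1.47 to -0.47 on the log2 scale, and of Fcgr2b, from 2.27 to 0.27, were among those lost. Of the 37 higher members, 11 were at the floor in control, and for these folds are lower bounds, at least 292-fold for Clec5a, 222-fold for Trem3 and 204-fold for Fcgr4.

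The members were set beside the marker sums after Lilrb4a, Lilrb4b, Tlr1, Tlr12 and Treml2 had been left out because their patterns differed, so the sums describe a chosen remainder and not each gene. The other 41 members summed to 15083, 25076 and 31679 normalized counts in the 3 CD8 Flica-positive libraries, which were 7.52%, 7.01% and 8.17% of the summed neutrophil markers. In CD8 Flica-negative libraries they summed to 974, 1668 and 1673, which were 8.21%, 9.17% and 9.27%. In CD4 Flica-negative libraries they summed to 460, 518 and 785, which were 17.2%, 10.99% and 10.1%. In CD8 control libraries, where Tlr2, Tlr7, Tlr9 and Siglecg make up much of the sum, they came to 1283 to 1558 normalized counts, more than 10 times the neutrophil sum. The means of some single members differed from the sums, though CD4 and CD8 Flica-negative cells were not compared directly by a test. Siglecf, Tlr9, Fcgr2b and Clec7a averaged more in CD4 than in CD8 Flica-negative cells (50.02 against 26.3, 15.8 against 3.60, 101 against 82.7 and 14.2 against 8.84 normalized counts), while the neutrophil markers averaged 5059 against 16035. From CD8 Flica-negative to Flica-positive cells the 41 members rose 16.6-fold on average, the neutrophil markers 19.7-fold and the macrophage or monocyte markers 14.7-fold. The macrophage or monocyte sum averaged 32238 normalized counts in Flica-positive cells and was mostly Lyz2 (26217), followed by Cd14 (2688) and Itgam (1814). C1qa, C1qb and Adgre1 averaged 262, 233 and 208 there, so the fold of this sum says little about them. The part of neutrophil and macrophage RNA in the members' rise was not tested.

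**Figure D5:**
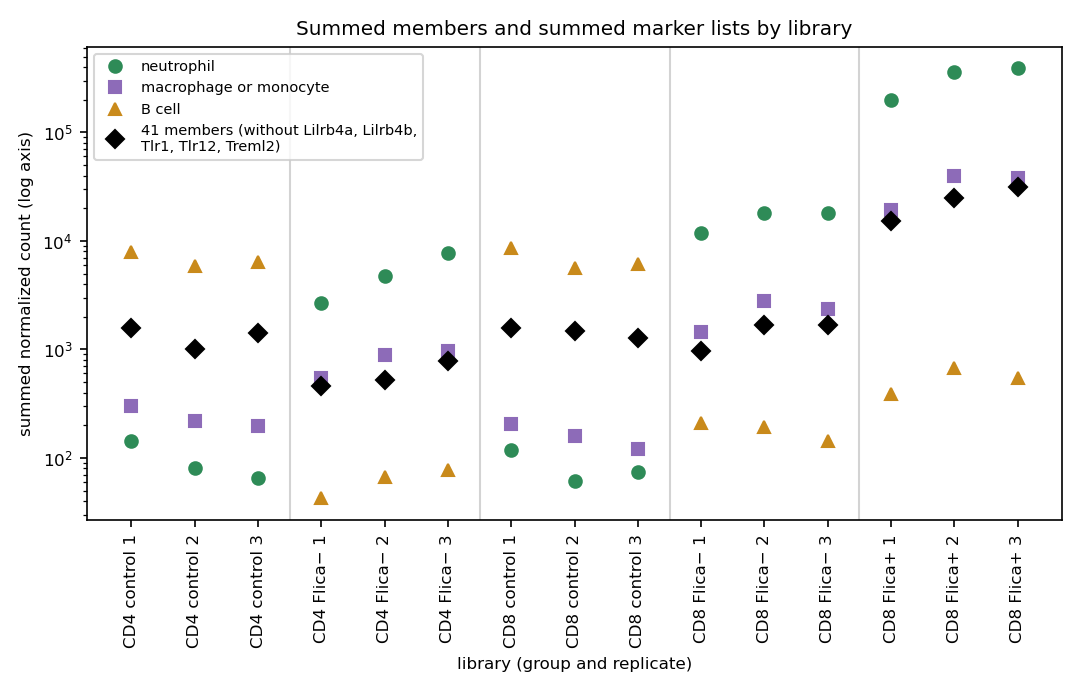
Summed normalized counts on a log axis (y) of 41 members and of the neutrophil, macrophage or monocyte and B cell marker lists in the 15 libraries (x, by group and replicate). The neutrophil sum reaches 200517 to 387729 in the 3 CD8 Flica-positive libraries, the 41 members 15083 to 31679, and the B cell sum is 5670 to 8510 in the control libraries and at most 670 elsewhere.

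Genes that work with these receptors were read from fixed lists, in which the tables hold some genes and not others. Of 15 ITAM adaptors and proximal kinases, 9 were listed and 8 were called higher in CD8 Flica-positive than in Flica-negative cells. Tyrobp, the adaptor of the Trem receptors, averaged 30.8 normalized counts in CD8 control, 111 in CD8 Flica-negative and 1559 in CD8 Flica-positive cells (log2 3.81 for the last step), and Fcer1g, the adaptor of the activating Fc and Pira receptors, averaged 19.5, 457 and 1966 (log2 2.10). The Src family kinases Fgr (log2 2.71) and Lyn (log2 2.57) were called higher with them, as was Card9 (log2 3.95), which links C-type lectins to NF-kB. Of 6 ITIM phosphatases and adaptors, 2 were listed, and Dok3 was called higher (log2 3.65) and Dok2 was not (log2 -0.26).

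Of 10 Toll-like receptor co-receptors and chaperones, the 5 listed were all called higher in Flica-positive cells. Cd14, the co-receptor of Tlr4, averaged 11.9 normalized counts in CD8 control, 95.0 in CD8 Flica-negative and 2688 in CD8 Flica-positive cells (log2 4.82 for the last step), and Cd180 and Ly86, a receptor pair of B cells and macrophages, had log2 differences of 3.04 and 3.49. Of 17 adaptors, kinases and inhibitors below the Toll-like receptors, 5 were listed. Tirap, an adaptor of Tlr2 and Tlr4, was called higher (log2 1.23) and Tnfaip3 (A20), an inhibitor of NF-kB signaling, lower (log2 -1.04), after a rise from 7199 to 37260 normalized counts between CD8 control and Flica-negative cells.

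Of 7 myeloid transcription factors, 6 were listed and 5 called higher, led by Spi1 (PU.1), the master regulator of myeloid genes. Spi1 averaged 73.3 normalized counts in CD8 control, 119 in CD8 Flica-negative and 2543 in CD8 Flica-positive cells (log2 4.42 for the last step), Cebpe 0, 42.5 and 783 (log2 4.20) and Cebpa 4.11, 53.3 and 579 (log2 3.43). Of 14 other myeloid receptors, 8 were listed, 5 of 7 tested were called higher and 1, the integrin Itgax, lower. Cd33 (log2 4.56) and Sirpa (log2 4.10) rose by about as much as the members did. These lists hold only genes that the authors had selected for change in these libraries, so their counts are not independent evidence of a direction.

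Since Spi1 moved with the members, the promoters of the members were read for its core motif. RefSeq windows on GRCm38.p6 were found for 35 of the 46 members, and the 200 bases before the start site were searched on both strands for GAGGAA, the core bound by PU.1, and for TTGCNNAA, a C/EBP site. At least 1 GAGGAA was found for 26 of the 35 members (74.3%), against 21.3% of all genes with a window. Paralogs share promoter sequence, so these 26 are not independent. TTGCNNAA was found for 5 members (14.3%), against 8.55% of all genes. Of 32 members with a window that were called higher in CD8 Flica-positive than in Flica-negative cells, 25 held GAGGAA. Cd300lb, Clec4a2, Clec4d, Fcgr2b, Fpr1, Siglecg and Tlr2 were called higher without it, and Tlr1, which was not called, held 1. Whether the core goes with the level of a member was not tested. The 4 windows shown first are examples picked from members that hold the core and had high levels in Flica-positive cells. The last is that of Tlr12, which stayed low there and lacks the core. No window of a member called higher without the core is shown, so the examples do not tie the core to the level. Capitals mark the GAGGAA core, which reads TTCCTC on the other strand, and sequences run 5′ to 3′ up to the base before the start site.
Fpr2, chr17:17887624-17887823, plus strand: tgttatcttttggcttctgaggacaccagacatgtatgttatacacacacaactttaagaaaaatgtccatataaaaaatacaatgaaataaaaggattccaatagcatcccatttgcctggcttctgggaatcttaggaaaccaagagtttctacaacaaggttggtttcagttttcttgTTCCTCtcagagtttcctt
Trem1, chr17:48232539-48232738, plus strand: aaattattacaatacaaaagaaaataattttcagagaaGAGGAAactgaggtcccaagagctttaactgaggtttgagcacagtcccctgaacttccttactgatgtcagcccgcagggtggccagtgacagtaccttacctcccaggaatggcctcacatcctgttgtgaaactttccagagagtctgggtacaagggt
Pirb, chr7:3720383-3720582, minus strand: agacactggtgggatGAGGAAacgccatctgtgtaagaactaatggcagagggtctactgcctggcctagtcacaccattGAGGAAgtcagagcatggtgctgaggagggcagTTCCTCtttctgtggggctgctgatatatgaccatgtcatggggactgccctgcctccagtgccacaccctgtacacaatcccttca
Fcgr4, chr1:171018726-171018925, plus strand: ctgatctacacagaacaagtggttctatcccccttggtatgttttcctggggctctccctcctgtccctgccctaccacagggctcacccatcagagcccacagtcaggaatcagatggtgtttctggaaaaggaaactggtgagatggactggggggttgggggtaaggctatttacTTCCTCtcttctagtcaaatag
Tlr12, chr4:128618620-128618819, minus strand: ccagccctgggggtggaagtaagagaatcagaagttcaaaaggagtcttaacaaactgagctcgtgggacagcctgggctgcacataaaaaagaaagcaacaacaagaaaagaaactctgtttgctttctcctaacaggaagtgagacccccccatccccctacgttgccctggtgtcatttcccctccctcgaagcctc

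The core lay 19 bases before the start site of Fpr2 and 22 bases before that of Fcgr4, 162 bases before that of Trem1, and 3 times in the Pirb window, the nearest 87 bases before its start. The Tlr12 window held neither motif. A match is a match of letters, and its absence says only that these letters are not in this window. Windows for Lilrb4a, Lilrb4b, Treml2, Tlr4, Tlr7, Trem3, Clec4n, Siglec1, Pira12, Pira13 and Pira2-ps1 were not analysed here.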

How the data were processed

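RNA-seq counts of 15 libraries, 5 groups of 3, were analysed. The submitters' processing notes name STAR 2.7.1a, DESeq2 and GRCm38. The counting tool, annotation and strand setting are not given in the sources used here. In the 4 deposited tables the authors give raw counts per gene for all 15 libraries, together with their own fold changes and p-values, which were not used. A gene is in a table if the authors' test of that comparison gave it an adjusted p under 0.05 and a log2 fold change beyond 2 in either direction. The deposited mean signal of each gene, its mean normalized count over the 15 libraries, served only to recover the authors' size factors, with a largest relative error of 6e-15. Library depth cannot be had from selected genes.

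Groups were compared with edgeR 4.0.16 (R 4.3.3, limma 3.58.1): a quasi-likelihood fit of both groups with the deposited size factors, filterByExpr, and Benjamini-Hochberg adjustment over all listed genes tested, with a threshold of 0.05. Since the authors selected these genes on the same libraries, the adjusted p values cover the listed genes alone. The standard error is the log2 fold change divided by the root of the F statistic. Where no library of a group held more than 3 counts, that floor took its place in folds, which are then lower bounds and cover only the error of counting. The test was tested on simulated data with as many genes raised as lowered and with known size factors. That setting does not cover the choice of scaling. Alternatives were TMM, DESeq2 1.42.0, no filter, a mean of at least 10 normalized counts, all 15 libraries in 1 fit, a replicate block, an adjusted p below 0.01 and leaving out each library. Positions and exonic lengths are from GENCODE M21 on GRCm38 and promoters from RefSeq (GRCm38.p6). Python 3.11.15, pandas 2.3.3 and matplotlib 3.10.9 made the tables and plots.

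The members, the 9 marker lists, the 6 pathway lists and the roles were chosen with earlier results of these data known. Named members are the 4 with the highest mean in each family, any called lower in any comparison or called in the interaction, and any with a mean of at least 50 in a control group, which gave 30. Clec4d, Clec4n, Clec7a, Cd300c2, Lilra6, Pira1, Pira2, Pira2-ps1, Pira13, Tlr3, Tlr4, Tlr8 and Tlr13 were named after their values were seen. One gene of the Fc receptor family is not reported here. The labels call the replicates biological. Mice with aGvHD were pooled for each sort and a control sort may hold 1 mouse, so p-values measure the spread between sorts. The deposited enrichment tables were not used.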

Additional observations from a re-analysis of the deposited data

Results flagged for a closer look

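Among 36 members tested, 3 were called by the interaction term of edgeR between CD4 and CD8 Flica-negative cells, as were 11.3% of all genes tested. The differences (CD4 minus CD8) were 1.92 for Tlr1, 1.59 for Treml2 and 1.45 for Lilrb4b on the log2 scale. Tlr1 and Treml2 fell from control in all 3 libraries of both lineages and fell less in CD4 cells, and Lilrb4b rose in all 3 libraries of both lineages and rose more in CD4 cells. The call of Lilrb4b did not hold under TMM (1.54, adjusted p = 0.098). It was also lost on leaving out most of the single libraries (edgeR adjusted p up to 0.16, without CD8 control replicate 1).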

How the results depend on the processing

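Of the counts of called members recomputed under alternatives, 121 stayed within 1.5 times the main count and 2 did not. Both were the members called higher in CD4 Flica-negative cells, 8 without a filter on low counts, where the higher number follows from testing genes that the filter had removed, and 4 to 9 when libraries were left out in turn (9 without CD4 control replicate 1), against 5. The cause of the latter was not tested. Of the alternatives to 88 log2 fold changes of members named in the text, 1093 kept the direction and side of the threshold, 63 lost a call, 7 gained one and 5 changed sign. Over all members and 5 comparisons, leaving aside the stricter threshold, 65 calls were lost and 61 gained. The sign changed for Tlr1 between CD8 Flica-positive and Flica-negative cells under TMM (-0.30) and for Lilrb4b in the same comparison without Flica-negative replicate 1 (0.0424, in a range of -0.2457 to 0.0424 over the libraries left out). Against CD8 control it changed for Tlr2 in Flica-positive cells under TMM (-0.47, from a called 1.47) and for Tlr7 without Flica-positive replicate 1 or 2 (0.0678 and 0.0475, not called, in a range of -0.6288 to 0.0678 over the libraries left out). The cause was not tested. TMM over genes selected for change shifted the median log2 fold change by -0.56 and -1.92 in the Flica-positive comparisons and by -0.43 in CD8 and -0.36 in CD4 Flica-negative cells.

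Libraries with the same replicate number correlated in their deviations from the group means by 0.17, 0.0466 and 0.168 across 2202 genes between CD8 Flica-positive and Flica-negative cells. There all 6 libraries correlated best with their own number. Between day 7 groups and the controls of their lineage the correlations were -0.0799 to 4.9e-05. Correlations between CD4 and CD8 libraries were not computed. The labels tie no number to a sort and 1 pair stayed under 0.1, so the numbers were not taken as pairs. Whether same-numbered libraries within day 7 or within the controls share a sort was not settled. In both control groups replicate 3 had the lowest erythroid sum, at 1981 in CD4 and 1874 in CD8 cells. Replicate 1 had the lowest neutrophil sum and the highest erythroid sum in all 3 day 7 groups. With the replicate block, 39 members were called higher and 0 lower between CD8 Flica-positive and Flica-negative cells. Against control the block gave 36 and 4 in Flica-positive cells, 11 and 7 in CD8 and 4 and 7 in CD4 Flica-negative cells. In the interaction it gave 3. Between CD8 Flica-positive and Flica-negative cells the block ended the call of Siglecf (log2 1.75, adjusted p = 0.083) and made one for Tlr3 (adjusted p = 0.046). Members with a mean under 10 normalized counts, 26 of 46 in each control group, limit what can be said of folds against control.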
